A study of Mus musculus with 16 samples.

Results

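The glucocorticoid receptor gene Nr3c1 and 8 genes known as its targets in skeletal muscle, Fkbp5, Tsc22d3, Klf9, Klf15, Sgk1, Zbtb16, Glul and Cebpb, were followed in the gastrocnemius muscle of 16 mice. The genes were taken by symbol, and all 9 were among the 35415 genes of the count tables. All 9 also passed the filter on low counts, as did 14749 genes in all.

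The mice were wild type male BALB/c animals, 8 weeks old at purchase, and polyA RNA of 4 mice per group was sequenced from groups of 12. The C group had neither tumor nor training, the E group was trained, the T group was inoculated with CT26 cells without training, and the TE group was both inoculated and trained. CT26 cells, a colon carcinoma line derived from BALB/c mice, were placed under the skin of the dorsolateral hind limb in the T and TE groups, and the C and E groups received saline there under the same pentobarbital anesthesia. Tumors did not form in every mouse of the full TE group, and whether all 4 sequenced TE mice had one is not given in the sources used here. Training began the day after inoculation, lasted 4 weeks and took place on 6 days of each week, as treadmill runs of 60 min at a speed of 14 m/min, while C and T mice were set daily on a treadmill that did not move. All 16 mice were killed with an overdose of pentobarbital. The side of the sampled muscle, the hour of death and the time since the last run are not given in the sources used here.

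Glucocorticoids, in mice mainly corticosterone, enter the cell and bind the glucocorticoid receptor, which is held ready by HSP90 and its co-chaperones. The receptor then moves to the nucleus and binds DNA at glucocorticoid response elements, pairs of short inverted repeats, near genes that it switches on. In skeletal muscle, raised glucocorticoids are known for protein breakdown, fiber atrophy and the release of amino acids such as glutamine. Fkbp5 and Zbtb16 are widely used readouts of receptor activity, and the receptor gene itself need not change when its activity does.

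The full response element, searched as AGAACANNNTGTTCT, was found in 2 of the 8 targets when each gene was read with 5000 bases on either side. The search used the GRCm39 genome and the GENCODE annotation, and the element reads the same on both strands apart from its 3 middle bases. Fkbp5 held 2 matches and Sgk1 held 1, and the 3 sites are shown with 18 bases on each side because they are the receptor's best known kind of binding sequence in these genes. Capitals mark the element, and each line gives the strand of the gene.

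Fkbp5, intron, chr17:28639277-28639327 (-): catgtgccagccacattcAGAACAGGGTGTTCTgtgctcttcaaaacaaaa
Fkbp5, intron, chr17:28661375-28661425 (-): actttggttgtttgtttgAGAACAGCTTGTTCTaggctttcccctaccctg
Sgk1, intron of the longest transcript, chr10:21869582-21869632 (+): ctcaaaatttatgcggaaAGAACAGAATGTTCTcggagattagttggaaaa

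A match is a description of the letters and not evidence of binding. Of windows on the same chromosome as long as the one searched for Fkbp5, 3.28% held at least 1 match, and for Sgk1 the share was 3.02%. The Sgk1 site lies 182 bases upstream of an annotated transcript start, and the Fkbp5 sites lie 1801 and 694 bases upstream of the nearest one. Klf9, Klf15, Tsc22d3, Zbtb16, Cebpb and Glul held 0 matches, in windows of which between 0.271% and 4.87% held one. Only the full element was searched over the genes, so that 0 matches does not mean that looser forms of it are absent. In RefSeq promoter windows (250 bases before to 50 bases after a start, GRCm38.p6 in the table and each found once in GRCm39), the full element was in 3 of 32851 windows (0.00913%). One of these 3 belonged to Sgk1, the only gene with a match among the 7 members that had windows there, 14 windows in all. Nr3c1 and Zbtb16 were not in that table.

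Levels between genes are given as FPKM, which divides the counts by gene length and library total. In the C mice the highest mean level was that of Glul with 90.8 ± 10.6 FPKM (SD, n = 4), which encodes glutamine synthetase. Tsc22d3, a mediator of anti-inflammatory glucocorticoid effects also called Gilz, followed with 58.7 ± 14.5 FPKM, the kinase gene Sgk1 with 57.5 ± 7.20 FPKM and the Krüppel-like factor gene Klf9 with 51.6 ± 2.60 FPKM. The ranges of Tsc22d3, Sgk1 and Klf9 over the 4 C mice overlapped, so that their order could not be told from the spread, and the lowest Glul mouse (77.8 FPKM) was below the highest Tsc22d3 mouse (79.5 FPKM). Cebpb (16.7 ± 2.08 FPKM) and Nr3c1 (15.3 ± 0.759 FPKM) also overlapped. Fkbp5 (6.02 ± 1.36 FPKM), Zbtb16 (5.26 ± 0.408 FPKM) and Klf15 (5.15 ± 0.401 FPKM) stood lowest, with overlapping ranges. In the T mice the means of Fkbp5 and Zbtb16 were 20.8 ± 12.1 and 14.6 ± 6.39 FPKM, against 14.8 ± 0.917 FPKM for the receptor gene.

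All further values per mouse are CPM, counts scaled to library size with TMM factors, in the order of replicates 1 to 4, and fold changes come from edgeR's quasi-likelihood test over all 16 libraries. Called means a Benjamini-Hochberg adjusted p under 0.05 over the 14749 genes, and a DEG also needed a 2-fold change. The T vs C, E vs C and interaction contrasts share the C mice, and T vs C and TE vs T share the T mice, so that they are not independent of each other. The libraries held 35628211 to 37635741 counts, and the lowest value of any of the 9 genes in a library was 19.0 CPM. Of the 9 genes, 7 (all but Tsc22d3 and Klf15) overlap between 1 and 4 annotated genes on the other strand, 4 for Fkbp5 and 2 for Zbtb16. The strand setting of the counting is not given in the sources used here, so that reads of such partners cannot be told apart from theirs. In bulk muscle, fewer cells of a type and less RNA per cell cannot be told apart. Muscle fiber markers summed to 111401 to 136906 CPM in every library. The 5 epithelial and carcinoma markers summed to at most 7.61 CPM, with Epcam at no more than 5 counts in any library.

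**Figure D1:**
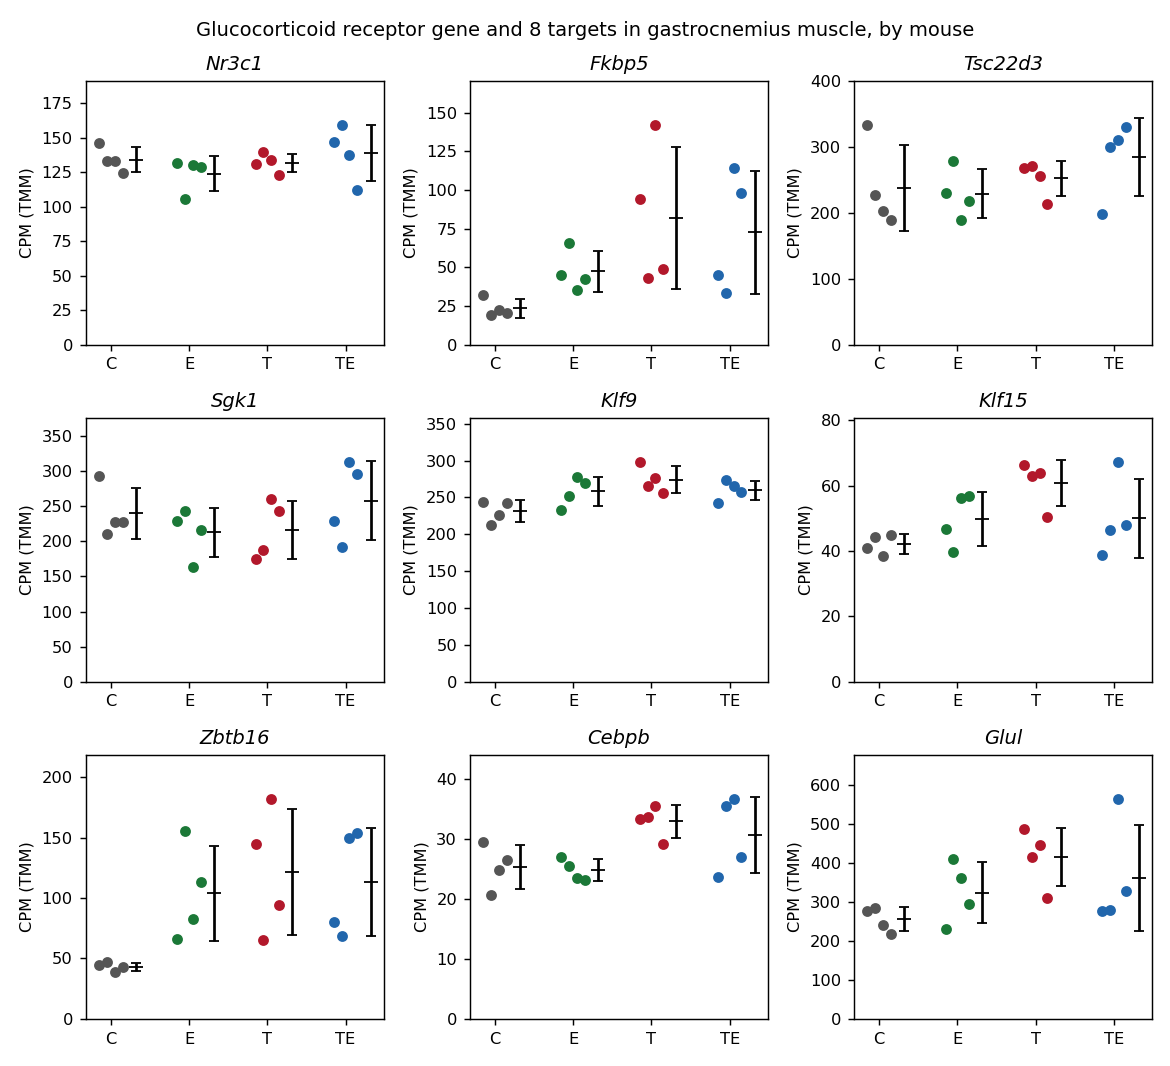
Levels of Nr3c1 and its 8 targets in each mouse, in CPM with TMM scaling on axes that start at 0. Each point is 1 of 4 mice per group, and the bars show mean and SD. Every E, T and TE mouse stood above the highest C mouse for Fkbp5 (32.2 CPM) and Zbtb16 (46.8 CPM).

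The receptor gene Nr3c1 did not pass the test in any of the 5 contrasts. It lies on chromosome 18 (39543598 to 39652474, minus strand, GRCm39) and measured 146, 133, 133 and 124 CPM in the C mice. The T mice gave 131, 139, 134 and 123 CPM, and the 2 groups overlapped. The E mice gave 132, 105, 130 and 129 CPM and the TE mice 146, 159, 138 and 112 CPM. The log2 fold change of T vs C was -0.03 with a 95% interval from -0.23 to 0.17 (edgeR adjusted p = 0.932), which as a ratio runs from 0.853 to 1.13. The interval for E vs C ran from -0.31 to 0.09 on the log2 scale and that for TE vs T from -0.12 to 0.28. Among the T mice, Nr3c1 had the lowest coefficient of variation of the 9 genes at 5.17%, against 56.3% for Fkbp5.

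Fkbp5 encodes an HSP90 co-chaperone that lowers the receptor's affinity for hormone and is itself induced by the receptor. Its gene lies on chromosome 17 (28618058 to 28737521, minus strand, GRCm39). In the C mice it measured 32.2, 19.0, 22.1 and 20.6 CPM. The T mice gave 94.1, 42.8, 142 and 48.8 CPM, so that every T mouse was above every C mouse, with mice 1 and 3 far above mice 2 and 4. The E mice gave 45.3, 65.9, 35.5 and 42.4 CPM, and the TE mice gave 44.8, 33.4, 114 and 97.9 CPM. All 12 mice of the E, T and TE groups were above the highest C mouse, the lowest of them, TE 2, by a small margin.

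Fkbp5 rose 3.49-fold in T vs C (95% interval 1.960 to 6.21, log2 fold change 1.80, SE 0.39, edgeR adjusted p = 0.0451) and was a DEG. In E vs C its log2 fold change was 1.01 (SE 0.39, edgeR adjusted p = 0.266) and did not pass. Within the inoculated mice, TE vs T gave -0.17 (SE 0.38, edgeR adjusted p = 0.984), with an interval from -0.97 to 0.62. Averaged over untrained and trained mice, the tumor contrast of Fkbp5 was 2.31-fold (log2 1.21, SE 0.27, edgeR adjusted p = 0.0337), a call that was lost in 10 of 16 omissions of 1 library (without E 1, E 3, E 4, C 2, C 3, C 4, T 1, T 3, TE 3 or TE 4), with edgeR adjusted p from 0.0152 to 0.0862. The T vs C call was also near the threshold. It was lost without any 1 of 10 libraries, the 4 C, the 4 E, T 1 and T 3, and without T 3 the log2 fold change fell to 1.39, while the adjusted p over all 16 omissions ran from 0.0170 to 0.154.

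Zbtb16 encodes the zinc finger repressor PLZF, a strongly glucocorticoid-inducible transcription factor. It lies on chromosome 9 (48563141 to 48748664, minus strand, GRCm39). The C mice were close together at 44.2, 46.8, 38.7 and 42.8 CPM. The T mice gave 145, 65.0, 182 and 94.4 CPM, the E mice 65.7, 155, 82.6 and 113 CPM, and the TE mice 80.2, 68.9, 150 and 154 CPM. As with Fkbp5, all 12 mice of the other groups were above all 4 C mice, and T 1, T 3, TE 3 and TE 4 were the highest among the inoculated mice for both genes.

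Zbtb16 rose 2.82-fold in T vs C (95% interval 1.77 to 4.48, log2 fold change 1.49, SE 0.32, edgeR adjusted p = 0.0392) and was a DEG. In E vs C its log2 fold change was 1.27 (SE 0.32), with an unadjusted p of 0.000854 and an edgeR adjusted p of 0.126, so that the separation of the 8 mice did not pass the correction. In TE vs T the value was -0.10 (SE 0.31, edgeR adjusted p = 0.990). The average over both tumor contrasts was 0.81 (SE 0.22, edgeR adjusted p = 0.0870). The T vs C call of Zbtb16 was lost without any 1 of 7 libraries, the 4 C, E 4, T 1 and T 3, with log2 fold changes from 1.23 without T 3 to 1.70 without T 2 and edgeR adjusted p from 0.0105 to 0.139.

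Fkbp5 and Zbtb16 were the 2 of 9 genes called in T vs C, both higher, beside 0.678% of all genes called and 0.515% called higher. Both were among the DEGs, which were 0.285% of all genes. Counted by overlap, Fkbp5, Zbtb16, Klf9, Klf15 and Glul had all 4 T mice above all 4 C mice, 5 of 9 against 4.03% of all genes. Only Fkbp5 and Zbtb16 of the 9 had all 12 E, T and TE mice above all C mice, which held for 69 genes in all (0.468%). At an unadjusted p under 0.05, 6 of the 9 genes were higher and 0 lower in T vs C, where 8.23% of all genes were higher. The median log2 fold change of the 9 genes was 0.38, beside -0.00125 for all genes. The 9 genes were chosen with earlier results of these data known, so that these counts and this median are not independent evidence.

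**Figure D2:**
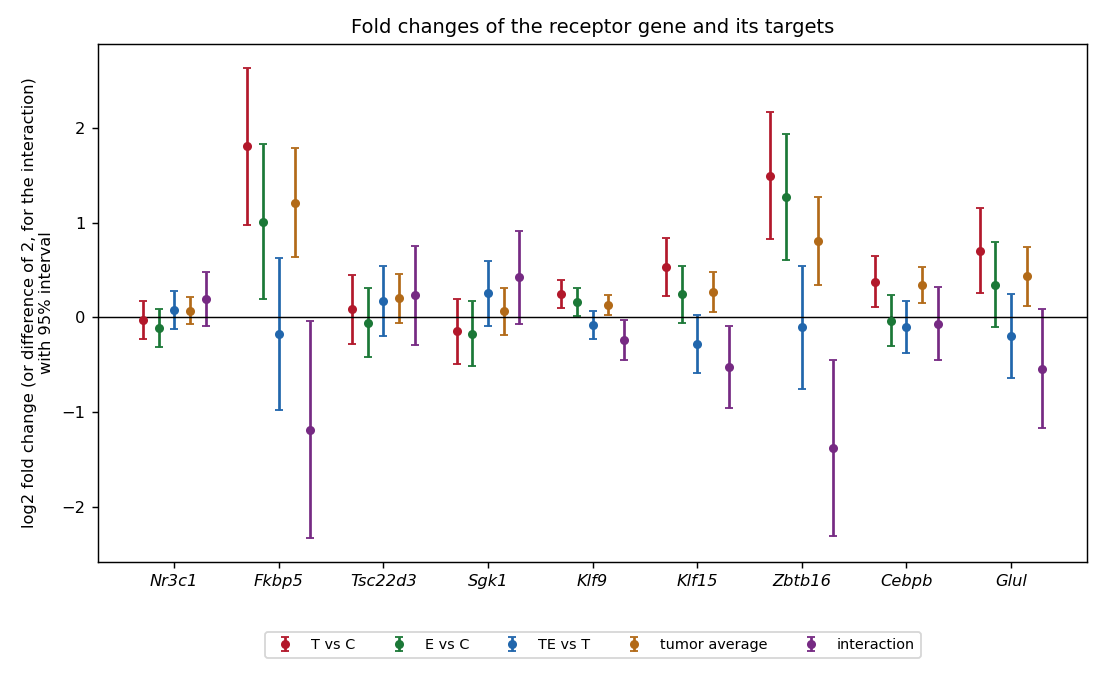
Log2 fold changes of the 9 genes with 95% intervals from edgeR's quasi-likelihood test, for T vs C, E vs C, TE vs T, the average of both tumor contrasts and the interaction (a difference of 2 fold changes). Fkbp5 and Zbtb16 have the widest intervals and the highest T vs C values (1.80 and 1.49), while Nr3c1, Tsc22d3 and Sgk1 lie around 0.

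Klf15 and Klf9 encode Krüppel-like transcription factors, and Klf15 is known to drive amino acid breakdown and to oppose mTORC1 in muscle. Klf15 measured 40.9, 44.4, 38.6 and 44.8 CPM in C and 66.3, 63.0, 64.0 and 50.4 CPM in T mice. The 2 groups did not overlap, with a ratio of 1.44 (log2 fold change 0.53, SE 0.14, edgeR adjusted p = 0.1003) that did not pass. The E mice gave 46.8, 39.7, 56.2 and 56.7 CPM and the TE mice 38.9, 46.4, 67.3 and 47.9 CPM, and both groups overlapped with C and T. TE vs T was -0.28 (SE 0.14, edgeR adjusted p = 0.852).

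Klf9 was expressed more evenly, at 244, 212, 226 and 243 CPM in C and 298, 266, 277 and 256 CPM in T mice. Its T vs C log2 fold change was 0.25 (SE 0.07, edgeR adjusted p = 0.115), small in size but with no overlap between the groups. The E mice gave 233, 252, 278 and 270 CPM (log2 fold change 0.16, edgeR adjusted p = 0.326) and the TE mice 243, 273, 265 and 257 CPM. With DESeq2 in place of edgeR, Klf9 (adjusted p = 0.0438) and Klf15 (adjusted p = 0.0207) passed in T vs C and the count of called members was 4. DESeq2 called 421 genes in all in that contrast, against 100 with edgeR.

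Glul makes glutamine from glutamate and ammonia, and is induced by glucocorticoids in wasting muscle. It measured 277, 284, 242 and 218 CPM in C and 487, 415, 446 and 311 CPM in T mice, again without overlap. The ratio was 1.63 (log2 fold change 0.70, SE 0.21, edgeR adjusted p = 0.134) and did not pass. The E mice gave 230, 409, 362 and 294 CPM. The TE mice gave 278, 279, 563 and 329 CPM, where TE 3 alone exceeded every T mouse. The Glul locus (chromosome 1, 153775690 to 153785469) overlaps Teddm2 on the other strand.

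Cebpb, an inflammation- and glucocorticoid-responsive transcription factor gene linked to atrophy programs, measured 29.5, 20.7, 24.9 and 26.5 CPM in C and 33.3, 33.7, 35.6 and 29.1 CPM in T mice. T 4 fell just below C 1, so that the groups overlapped by 1 mouse, and the log2 fold change was 0.38 (SE 0.13, edgeR adjusted p = 0.191). The E mice, at 23.1 to 27.0 CPM, lay within the range of the C mice. The TE mice gave 23.7, 35.5, 36.6 and 26.9 CPM. Averaged over both tumor contrasts, Cebpb reached 0.34 (SE 0.09, edgeR adjusted p = 0.0772). The gene (chromosome 2, 167530835 to 167532338) overlaps Peds1 on the other strand.

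Tsc22d3 and Sgk1, commonly used as receptor targets in other tissues, did not pass the test in any contrast. Tsc22d3 measured 333, 227, 203 and 189 CPM in C and 269, 271, 255 and 214 CPM in T mice, with the highest value of all 16 mice in C 1. Its T vs C log2 fold change was 0.08, with an interval from -0.28 to 0.45 (edgeR adjusted p = 0.871). The E mice ranged from 190 to 278 CPM and the TE mice from 198 to 330 CPM.

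Sgk1 encodes a kinase of the AKT family that promotes sodium transport and preserves muscle mass. It measured 293, 210, 228 and 228 CPM in C, 175, 188, 260 and 243 CPM in T, 229, 244, 163 and 216 CPM in E and 229, 192, 313 and 296 CPM in TE mice. Its T vs C log2 fold change was -0.15, with an interval from -0.50 to 0.20 (edgeR adjusted p = 0.726), and all 4 groups overlapped. Of the 2 genes that passed in T vs C, Fkbp5 held 2 matches of the full response element and Zbtb16 held 0, and of the 6 other targets Sgk1 held 1 and the other 5 held 0. Looser forms of the element were not searched over the genes. The upper ends of the 95% intervals of T vs C, 1.15-fold for Sgk1 and 1.37-fold for Tsc22d3, lay below the lower ends for Fkbp5 (1.96-fold) and Zbtb16 (1.77-fold).

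The contrasts for training called none of these genes. In E vs C, 0 of the 9 genes were called, beside 0.0881% of all genes (13 genes). DESeq2 called 1 of the 9, Zbtb16, among 236 genes in all. Fkbp5, Zbtb16 and Klf9 were higher at an unadjusted p under 0.05 (8.51% of all genes), and 2 of 9, Fkbp5 and Zbtb16, had all E mice above all C mice (5.06% of all genes). In TE vs T, 0 of 9 were called by either edgeR or DESeq2 and 0 had an unadjusted p under 0.05, where 5.88% of all genes did and edgeR called 0 genes. The interaction asks whether training acted differently with and without inoculation. Its estimates were -1.18 (SE 0.54) for Fkbp5, -1.38 (SE 0.44) for Zbtb16, -0.52 (SE 0.20) for Klf15 and -0.24 (SE 0.10) for Klf9. These 4 were at an unadjusted p under 0.05 and all below 0, where 5.51% of all genes were, but 0 were called (edgeR adjusted p from 0.438 for Zbtb16 to 0.540 for Fkbp5). Averaged over both tumor contrasts, all 9 genes had values above 0, 6 at an unadjusted p under 0.05 (7.41% of all genes) and 1 called, Fkbp5 (0.739% of all genes called higher).

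Whether the 9 genes varied together among mice of the same group was described by correlation. After centring each group on its mean, log2 CPM of Fkbp5 and Zbtb16 gave Pearson's r = 0.867 and Spearman's rho = 0.841 over 16 mice. The permutation p within groups was 0.003 for r and 0.00623 for rho, or 0.108 and 0.224 when adjusted by Benjamini-Hochberg over all 36 gene pairs, so that the relation did not pass the correction. Without the 2 mice farthest from the median of Fkbp5, r was 0.821. The other pair above 0.7 was Fkbp5 with Sgk1 (centred r = 0.713, rho = 0.753, adjusted permutation p = 0.236 and 0.248). Nr3c1 and Zbtb16 had a centred r of -0.608 (rho = -0.591, adjusted permutation p = 0.236 and 0.289). Of the 36 pairs, 29 had a positive centred r and 0 passed the correction. All libraries carry the same batch number, so that no relation could be computed within separate batches.

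**Figure D3:**
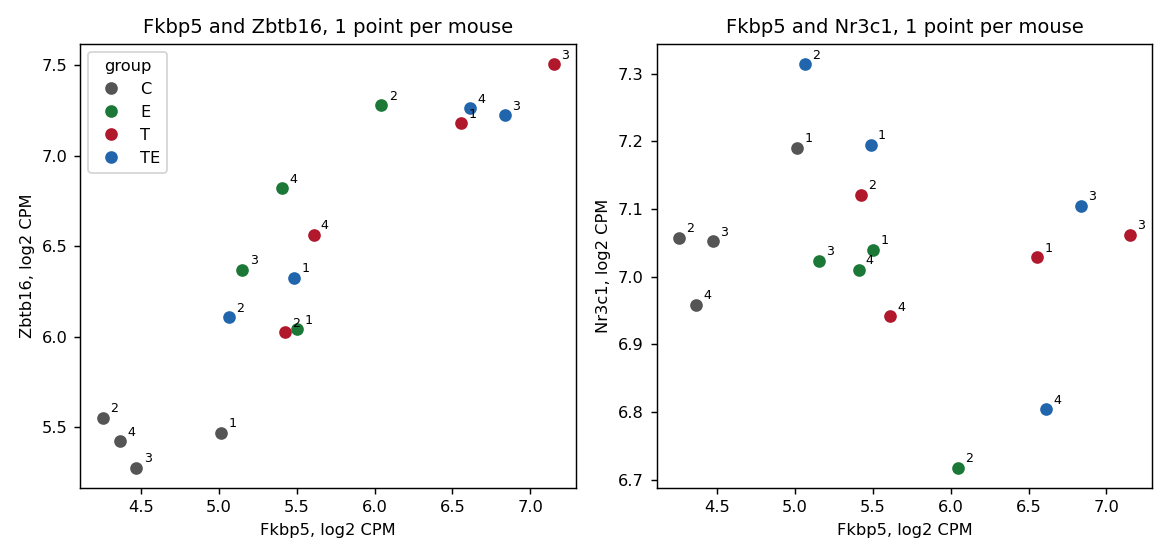
Log2 CPM of Fkbp5 against Zbtb16 (left) and against Nr3c1 (right), with 1 point per mouse, colored by group and numbered by replicate. The C mice sit at the lower left of the first panel apart from all others, and T 1, T 3, TE 3 and TE 4 sit at its upper right, while Nr3c1 shows no such ordering (pooled r = -0.249 with Fkbp5).

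Among the 14749 genes, the 3 most like each member over all 16 mice were taken by Pearson's r of log2 CPM, as a description that group differences and shared libraries contribute to. For Fkbp5 these were Gm32845 (r = 0.927), the metallothionein gene Mt2 (r = 0.925), which is itself glucocorticoid- and metal-inducible, and Zbtb16 (r = 0.924). For Zbtb16 they were Fkbp5, Fibin (r = 0.919) and Tns1 (r = 0.901). Glul was closest to Mast2 (r = 0.886), Zfand4 and Pnpla8, and Klf15 to Gucd1 (r = 0.840), Pcnt and Mtss2. Nr3c1 was closest to Ddit4l (r = 0.849), Gm12996 and Tor1b. The lists of Klf9 (Fbxw11, Cep85l and Smcr8), Cebpb (Wbp1l, Paip2b and Camta2), Tsc22d3 (Plk4, Zmat1 and Anapc16) and Sgk1 (1700094D03Rik, Eftud2 and Rhob) held no other member, with r from 0.756 to 0.853.

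The genes that act with the receptor did not pass in any contrast. Of 10 genes for the mineralocorticoid receptor, chaperones and hormone handling, 9 were tested and 0 were called in each of the 5 contrasts, with 1 called in the tumor average without T 3. Of all genes, 0.678% were called in T vs C, 0.0881% in E vs C, 1.36% in the tumor average and 0 in TE vs T and the interaction. A count of 0 in a list this short is near those shares. In T vs C the smallest unadjusted p belonged to the chaperone gene Hsp90ab1 (log2 fold change 0.23, SE 0.09, edgeR adjusted p = 0.224) and to the efflux pump gene Abcb1a (-0.37, SE 0.15, edgeR adjusted p = 0.262). Hsd11b1, whose enzyme regenerates active corticosterone in the cell, had means of 9.94 ± 0.875 CPM in C, 12.6 ± 1.65 CPM in E, 10.5 ± 3.02 CPM in T and 13.1 ± 1.18 CPM in TE mice. Hsd11b2, which inactivates the hormone, had at most 15 counts in a library. Of 10 coactivator and corepressor genes, 0 were called, also near those shares. The smallest unadjusted p in E vs C belonged to Ncoa3 and Med1, at 0.24 and 0.23 on the log2 scale (edgeR adjusted p = 0.164 and 0.153).

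Among other genes known to be induced by glucocorticoids in muscle, 2 of 23 were called higher in T vs C, beside 0.515% of all genes. That count ran from 0 to 8 over the other settings and from 0 to 5 with 1 library left out. Of the 23 tested, 21 had a positive T vs C log2 fold change, with a median of 0.64 against -0.00125 over all genes, and 13 were higher at an unadjusted p under 0.05 (8.23% of all genes). The FoxO factors Foxo1 (0.66, SE 0.12, edgeR adjusted p = 0.0195) and Foxo3 (0.47, SE 0.09, edgeR adjusted p = 0.0335), which drive atrophy genes, were the 2 called, both higher. The call of Foxo1 was lost in 5 of 16 omissions of 1 library (C 1, C 2, C 4, T 1 or T 3) and that of Foxo3 in 6 (the same and C 3), with edgeR adjusted p up to 0.0815 and 0.118. Over the 9 other settings the calls held in 6 for Foxo1 and 5 for Foxo3. Foxo1 had a mean of 39.2 ± 6.52 CPM in T against 24.8 ± 2.19 CPM in C mice. Averaged over both tumor contrasts, 4 were called, all higher (0.739% of all genes), adding the cell cycle inhibitor gene Cdkn1a (1.01, SE 0.22, edgeR adjusted p = 0.0295) and the arrestin-domain gene Arrdc2 (1.11, SE 0.22, edgeR adjusted p = 0.0171). With 1 library left out this count ran from 2 to 8, and over the 8 other settings from 1 to 7. The tumor averages of Foxo1 and Arrdc2 kept their calls in all 16 omissions, while that of Cdkn1a was lost in 6 (E 1, E 3, E 4, C 3, C 4 or TE 3) and that of Foxo3 in 10 (E 1, E 2, E 4, the 4 C, T 1, TE 3 or TE 4). Over the 8 other settings these calls held in 8 for Foxo1, 5 for Arrdc2 (edgeR adjusted p up to 0.103), 5 for Foxo3 and 3 for Cdkn1a (edgeR adjusted p up to 0.165). The ubiquitin ligase genes Fbxo32 and Trim63 had T vs C log2 fold changes of 0.96 (SE 0.37, edgeR adjusted p = 0.249) and 0.42 (SE 0.24, edgeR adjusted p = 0.452). In E vs C, 19 of the 23 were above 0, with a median of 0.34, and 0 were called (0 to 1 over the other settings). In TE vs T, 16 were below 0 and 0 were called. The list was chosen with earlier results of these data known, so that its direction is not independent evidence.

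Downstream of Klf15, the 5 metabolic genes Bcat2, Prodh, Gpt, Slc25a20 and Slc2a4 had 0 calls in all 5 contrasts, where 0 to 1.36% of all genes were called. A count of 0 in 5 genes is near that share, and 1 was called in E vs C with DESeq2, with only the groups compared or without T 3. Prodh, which starts proline breakdown, had a T vs C log2 fold change of 0.34 (SE 0.19, edgeR adjusted p = 0.439). The carnitine carrier gene Slc25a20 was at -0.26 in T vs C (SE 0.09, edgeR adjusted p = 0.174) and at -0.39 in E vs C (SE 0.09, edgeR adjusted p = 0.0867). In T vs C, 4 of these 5 genes had values below 0.

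**Figure D4:**
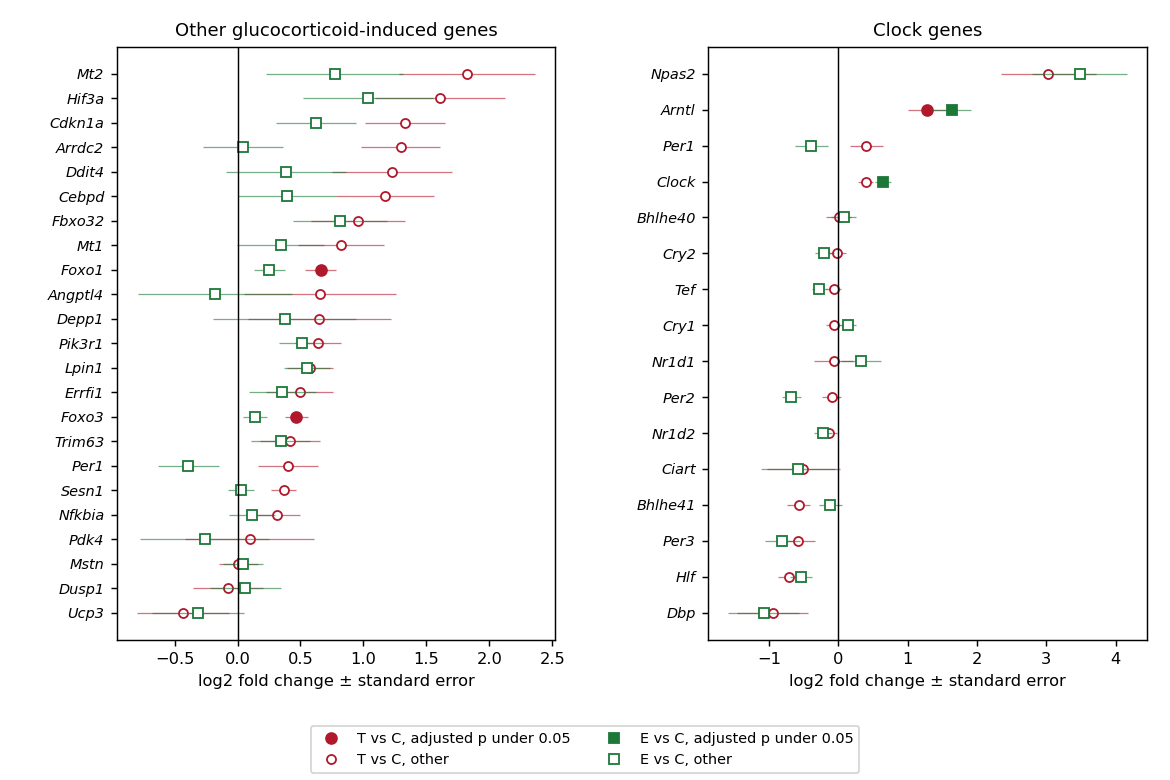
T vs C and E vs C log2 fold changes ± SE of 23 other glucocorticoid-induced genes (left) and 16 clock genes (right), with filled symbols for an edgeR adjusted p under 0.05. In the left panel 21 genes lie above 0 in T vs C, with Foxo1 and Foxo3 filled, and in the right panel Arntl is filled in both comparisons and Clock in E vs C.

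Arntl and Clock of the clock genes also had all 12 E, T and TE mice above all C mice (0.468% of all genes), as Fkbp5 and Zbtb16 did. The same held for Npas2, which had at most 5 counts in any C library and passed the filter on low counts only through the other groups. Hlf went the other way, with all 12 mice below all C mice (0.312% of all genes). Its lowest C mouse had 22.2 CPM, and the highest E, T and TE mice had 21.6, 19.3 and 17.4 CPM. Glucocorticoids are released with a daily rhythm, and Fkbp5, Zbtb16, Klf9 and Klf15 are known to vary over the day. Arntl, which encodes BMAL1, ranged from 6.13 to 7.70 CPM in C, 13.8 to 27.0 CPM in E, 9.18 to 26.3 CPM in T and 14.6 to 27.3 CPM in TE mice. It rose in T vs C (log2 fold change 1.28, SE 0.28, edgeR adjusted p = 0.0439) and in E vs C (1.63, SE 0.28, edgeR adjusted p = 0.0280), and Clock rose in E vs C (0.64, SE 0.11, edgeR adjusted p = 0.0315). With 1 library left out, the T vs C call of Arntl held in 5 of 16 omissions (without E 3, T 2, TE 1, TE 3 or TE 4). Its E vs C call was lost in 6 omissions (E 2, E 4 or any C) and that of Clock in 8 (the same, E 3 or TE 2), and edgeR adjusted p reached 0.146 for both. Over the 9 other settings these calls held in 3, 5 and 6. Dbp, the output gene that runs opposite to Arntl, ranged from 68.2 to 132 CPM in C, 20.6 to 105 CPM in E, 15.3 to 122 CPM in T and 17.1 to 35.4 CPM in TE mice. The E and T mice overlapped with both other groups, and the TE and C mice did not overlap, a pair that was not tested. Dbp was not called in any of the 5 contrasts. Of 16 clock genes tested, 5 were above 0 and 11 below in T vs C, and 6 above and 10 below in E vs C. At an unadjusted p under 0.05, 3 were higher and 3 lower in T vs C (8.23% and 5.96% of all genes). In E vs C, 3 were higher and 5 lower (8.51% and 5.67%). Called were 1 in T vs C (0.678% of all genes) and 2 in E vs C (0.0881%). These counts ran from 0 to 5 and from 0 to 4, both over the other settings and with 1 library left out. Since the hour of sampling is not given, group and hour cannot be told apart for Fkbp5 and Zbtb16, and the part of the clock in their values was not tested. Of 11 immediate early genes, which mark recent activity or handling, 0 were called in any contrast, near the 0 to 1.36% of all genes called. Junb had the smallest unadjusted p in T vs C (0.66, SE 0.27, edgeR adjusted p = 0.275), followed by Atf3 (0.79, SE 0.44, edgeR adjusted p = 0.438).

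Markers of other cells also differed between libraries. The 8 neutrophil markers summed to 1.15 to 15.4 CPM in C, 1.23 to 4.78 CPM in E, 8.73 to 50.6 CPM in T and 11.2 to 22.3 CPM in TE mice. Of the 7 tested in T vs C, 6 had log2 fold changes above 0 and 1, Lcn2, was below. Lcn2 had means of 3.85 ± 6.79 CPM in C and 2.92 ± 2.21 CPM in T mice, and it made up most of the highest C sum. Called higher in T vs C were 5 of the markers. These were S100a8 (0.0824 to 0.804 CPM in C and 2.21 to 11.0 CPM in T mice), S100a9 (0.522 to 2.63 and 4.04 to 24.2 CPM), Ltf, Ngp and Retnlg, of which the last 3 had at most 2 counts in any C or E library and passed the filter on low counts only through the groups where they were high, so that the count of 5 is no share to set against all genes. Camp, with 0 counts in the C and E mice, did not pass the filter. Their T vs C calls were lost without C 4 and, for S100a8, S100a9 and Ltf, also without C 3, and held in the other omissions. The 7 macrophage markers summed to 64.1 to 122 CPM in C and 84.6 to 191 CPM in T mice, with 173 CPM in T 3 and 191 CPM in T 4. All 7 had T vs C log2 fold changes above 0, with a median of 0.61, and 0 were called, 3 being higher at an unadjusted p under 0.05. The 7 adipocyte markers summed to 425 to 577 CPM in C, 454 to 772 CPM in E, 444 to 703 CPM in T and 429 to 564 CPM in TE mice. Most of this sum was the 1 gene Fabp4, with means of 435 ± 51.2 CPM in C, 449 ± 59.8 CPM in E, 438 ± 65.8 CPM in T and 428 ± 40.5 CPM in TE mice. The highest mouse by this sum in the E, T and TE groups, E 2, T 3 and TE 3, was also the one with the most Fkbp5 in its group, which did not hold in the C group (C 2 by the sum and C 1 by Fkbp5). The T vs C log2 fold changes of the adipocyte markers were above 0 for 6 of 7, with a median of 1.00 and 0 at an unadjusted p under 0.05. In E vs C they were above 0 for 7 of 7, with a median of 1.44 and 4 at an unadjusted p under 0.05, and 0 were called by edgeR in either contrast. The 6 endothelial markers summed to 516 to 642 CPM in C, 657 to 704 CPM in E, 501 to 756 CPM in T and 489 to 654 CPM in TE mice, with the highest value in T 3. Of these 6, 3 had T vs C log2 fold changes above 0 and 3 below. At an unadjusted p under 0.05, 2 were higher and 2 lower (8.23% and 5.96% of all genes). Only the VEGF receptor gene Kdr was called in T vs C, and it was lower (log2 fold change -0.68, SE 0.15, edgeR adjusted p = 0.0457), beside 0.163% of all genes. That call held in 5 of 16 omissions of 1 library (C 1, T 4, TE 1, TE 2 or TE 4), with edgeR adjusted p up to 0.153, and in 3 of 9 other settings. In the tumor average, 3 of the 6 were above 0 and 3 below. At an unadjusted p under 0.05, 1 was higher and 3 were lower (7.41% and 6.81% of all genes). Kdr (-0.69, SE 0.11, edgeR adjusted p = 0.00233) and the endomucin gene Emcn (-0.40, SE 0.08, edgeR adjusted p = 0.0189) were called lower in the tumor average (0.624% of all genes). Both calls held in all 16 omissions, and that of Emcn was lost without the 3 libraries high in lymphocyte markers that are named below. The 6 fibroblast markers summed to 896 to 1241 CPM in C, 1306 to 1683 CPM in E, 800 to 1211 CPM in T and 991 to 1113 CPM in TE mice. All 6 were higher in E vs C at an unadjusted p under 0.05 (8.51% of all genes). Their median was 0.58 on the log2 scale, and 0 were called by edgeR. The 8 lymphocyte markers were all below 0 in T vs C (median -4.52) and all above 0 in TE vs T (median 5.53), with 0 called in either contrast. They summed to at most 1.11 CPM in the T mice. Their sums reached 84.5 CPM in TE 4, 25.5 CPM in C 3 and 16.9 CPM in E 1, against at most 8.33 CPM elsewhere. Without those 3 libraries, the T vs C log2 fold changes were 1.77 for Fkbp5 (edgeR adjusted p = 0.135) and 1.44 for Zbtb16 (edgeR adjusted p = 0.0820), and 0 of the 9 genes were called in any contrast. The part of other cell types in the values of the 9 genes was not tested.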

How the data were processed

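RNA of 16 gastrocnemius samples, 4 per group, was measured; groups came from the sample labels. The authors trimmed reads with fastp 0.20.1, aligned them to GRCm39 with HISAT2 2.1.0 and deposited counts per gene from HTSeq 0.11.2, with versions from the submitters' processing notes; annotation release and strand setting are not given in the sources used here. The FPKM values deposited by the authors are these counts per gene length and library total. The labels name a V6 library kit and the paper a V5 kit. No column (0) belonged to samples outside the series.

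The counts were tested with edgeR 4.0.16 (R 4.3.3, TMM, filterByExpr, glmQLFit and glmQLFTest, 1 coefficient per group, two-sided, Benjamini-Hochberg adjustment). On simulated counts with these library sizes (14583 genes, T vs C), 69% of 100 genes changed by a log2 fold change of 1 and 87% of 100 changed by 2 were recovered, and 4 unchanged genes were called. Totals were 35628211 to 37635741 counts, and PCR copies cannot be told from molecules. No 2 libraries of the same group agreed within sampling noise (chi-square per degree of freedom from 13.4 to 65.8), so that the spread between mice exceeded the counting error. Alternatives were DESeq2 1.42.0, its size factors, no low-count filter, only the groups compared, a robust fit, the replicate number as a block, limma 3.58.1 on log2(FPKM + 1) and log2(FPKM + 0.1), fold changes of 2 and 1.5, each library left out and, added after seeing the data, 3 libraries left out together.

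The 9 members and all gene lists were chosen with earlier results of these data known. Named were all members, every called gene of a list or else the 2 with the smallest unadjusted p, and the 3 genes most correlated with each member, except that cell type marker lists with no call are given by sums and counts alone. Hsd11b1, Hsd11b2, Dbp, Hlf, Npas2, Fbxo32, Trim63, Lcn2, Camp, Fabp4 and Epcam were named beyond this rule after their values were seen. The metabolic genes downstream of Klf15 were named as a whole list. Permutation p-values of correlations (1e+05 resamples within groups) were also added after the values were seen. Sequences came from GRCm39 and RefSeq. Figures used matplotlib 3.10.9.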

Additional observations from a re-analysis of the deposited data

Results flagged for a closer look

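Of 36 sets of 4 mice (9 genes in 4 groups), 1 was flagged because a single mouse stood far from the other 3, where chance flags about 1 in 20. Nr3c1 in E 2 was 105 CPM, while the other E mice lay between 129 and 132 CPM, and its gap to the nearest of them was 0.899 of the range of the group, above Dixon's critical value for 4 samples. E 2 also had the highest Fkbp5 (65.9 CPM) and Zbtb16 (155 CPM) of the E mice.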

How the results depend on the processing

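All 9 members kept the sign of their T vs C and tumor values in every alternative other than the omission of 1 library, but the calls of Fkbp5 and Zbtb16 were near the threshold. Called members in T vs C were 2 as reported, 4 with DESeq2, 1 with only the groups compared and 0 with the robust fit, the replicate block, either limma scale or without the 3 libraries, and 0 to 2 with 1 library left out. Fkbp5 in T vs C was no longer past the threshold with only the groups compared (1.79), the robust fit (1.80), the replicate block (1.71), limma on log2(FPKM + 1) (1.49) and log2(FPKM + 0.1) (1.62) or without the 3 libraries (1.77). Its tumor average was not past it with the robust fit (1.21), the block (1.10), limma (0.95 and 1.02) or without the 3 libraries (1.09). Zbtb16 in T vs C was not past it with the robust fit (1.49), the block (1.47), limma (1.22 and 1.35) or without the 3 libraries (1.44). Past the threshold only in an alternative were Klf15 (0.53) and Klf9 (0.24) in T vs C with DESeq2, the tumor averages of Cebpb (0.34 and 0.34) and Zbtb16 (0.81 and 0.81) with DESeq2 and with no low-count filter, Fkbp5 in E vs C with only the groups compared (1.01), and Zbtb16 in E vs C with DESeq2 (1.27), with no filter (1.26) and with only the groups compared (1.27). Called members in E vs C were then 1, 1 and 2, and in the tumor average 3 with DESeq2 or no filter and 0 with the robust fit, the block, limma or without the 3 libraries, and 0 to 2 with 1 library left out. Signs near 0 turned for Cebpb (0.011 and 0.012 on the limma scales) and Tsc22d3 (0.0038 and 0.0041) in E vs C, and for the interaction of Cebpb without the 3 libraries (0.049). Genes called in T vs C (100, 76 higher) were 421 with DESeq2, 174 with no filter, 30 with only the groups compared, 42 at 2-fold, 46 without the 3 libraries, and 27 (14 higher) and 43 (26 higher) with limma, and 16 to 255 with 1 library left out. In E vs C (13) they were 236 with DESeq2, 21 with its size factors, 45 with no filter, 183 with only the groups compared, 25 with the block, 7 at 2-fold, 8 and 6 with limma, 4 without the 3 libraries and 0 to 127 with 1 left out. In the tumor average (201) they were 478 with DESeq2, 54 at 2-fold, 100 at 1.5-fold, 75 without the 3 libraries and 130 to 281 with 1 left out, in TE vs T (0) 7 with DESeq2, 3 with no filter and 0 to 2, and in the interaction (0) 20 with DESeq2 and 0 to 1. The cause of these changes was not tested. With 1 library left out, log2 values ranged from 1.39 to 2.01 for Fkbp5 in T vs C, 1.01 to 1.33 in its tumor average and -0.48 to 0.24 in TE vs T, from 1.23 to 1.70 for Zbtb16 in T vs C, 0.68 to 0.93 in its tumor average and -0.31 to 0.16 in TE vs T, from -0.063 to 0.016 for Nr3c1 in T vs C, from -0.012 to 0.29 for Tsc22d3 in T vs C and -0.16 to 0.15 in E vs C, and for Cebpb from -0.12 to 0.045 in E vs C, -0.20 to 0.0034 in TE vs T, -0.16 to 0.038 in the interaction and 0.29 to 0.39 in the tumor average. The replicate numbers stand for different mice, and same-numbered mice did not deviate together (correlations from -0.241 to 0.214), so the block is no pairing.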
